A study of Mus musculus with 9 samples.

Results

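The Kruppel-like factors described here are 10 mouse genes chosen by symbol (Klf2, Klf3, Klf4, Klf5, Klf6, Klf7, Klf9, Klf10, Klf13 and Klf15), of the 52550 genes that were quantified. All 10 were found, each under a single gene ID, and all 10 passed the filter on low values that kept 17080 genes. The mice were male, of strain C57BL/6N and aged 9 to 12 weeks, and RNA of their cerebral cortex was sequenced in 3 groups of 3 libraries. Knockdown mice (replicates 2, 3 and 4) received a locked nucleic acid antisense oligo against the enhancer RNA eRNA_06347 through the lateral ventricles, then had the middle cerebral artery blocked with a filament for 1 h (transient focal ischemia, an experimental stroke) and 6 h of reperfusion. Control oligo mice (replicates 1, 2 and 3) received a negative control oligo and the same occlusion and reperfusion. Sham mice (replicates 1, 2 and 3) had the neck incision with no filament, and the labels name no oligo for them. The tissue of the stroke mice was infarcted cortex on the occluded side, a single early time point. The sham libraries were made earlier by the same laboratory, so stroke and library origin cannot be told apart in any comparison with sham. Knockdown and control oligo mice both had stroke and both carried an oligo, and no group had stroke without one. The level of eRNA_06347 itself was not analysed here, so the depth of the knockdown is not known from these values.

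Kruppel-like factors are transcription factors that bind GC-rich and CACCC sequences through zinc fingers at the C-terminal end of the protein. Their N-terminal parts differ and make them activators, repressors or both. In blood vessels, Klf2 and Klf4 are induced by laminar flow through a kinase cascade that ends in ERK5 and MEF2 factors, and they maintain an anticoagulant and anti-inflammatory endothelium. In neurons, Klf6 and Klf7 favour axon growth, while Klf4 and Klf9 restrain it. Klf9, Klf13 and Klf15 are known as genes that respond to glucocorticoids or thyroid hormone, and Klf10 is an early gene of TGF-beta signalling.

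The zinc finger region, which defines the family, is shown first for 4 members because it is the stretch the genes share. In the longest open reading frame of the main GENCODE M21 transcript of all 10 members, a script found 3 fingers of the Cys2-His2 type spanning 243 bases. The last finger of Klf2, Klf4, Klf5 and Klf9 has 63 bases and reads as follows, 5′ to 3′ on the coding strand, with the codons of its cysteine and histidine pairs in capitals.
Klf2: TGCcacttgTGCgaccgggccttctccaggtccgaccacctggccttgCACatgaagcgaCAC
Klf4: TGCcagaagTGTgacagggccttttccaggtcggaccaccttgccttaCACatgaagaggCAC
Klf5: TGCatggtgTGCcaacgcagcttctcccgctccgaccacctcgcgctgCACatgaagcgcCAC
Klf9: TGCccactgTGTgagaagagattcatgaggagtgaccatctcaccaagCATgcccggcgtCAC
Over the 243 bases, identity was highest for Klf6 with Klf7 (81.07%) and for Klf2 with Klf4 (78.19%). Klf9 and Klf13 shared 72.84%. The open reading frame ended 1 to 3 codons after the last finger in Klf2, Klf3, Klf4, Klf5, Klf6 and Klf7, and 13 to 39 codons after it in Klf9, Klf10, Klf13 and Klf15.

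The promoters of Klf2 and Klf4 are shown because the mRNAs of both were higher in the stroke libraries, as described further on. RefSeq promoter windows (GRCm38.p6, 250 bases before to 50 after the start) were matched for 8 of the 10 members, not for Klf5 or Klf10. The 150 bases before the start are given 5′ to 3′ on the gene's strand, for Klf2 from chr8:72318912-72319061 on the plus strand and for Klf4 from chr4:55532476-55532625 on the minus strand. Capitals mark a match to a searched motif other than the GC box, which here is the MEF2 motif of Klf2.
Klf2: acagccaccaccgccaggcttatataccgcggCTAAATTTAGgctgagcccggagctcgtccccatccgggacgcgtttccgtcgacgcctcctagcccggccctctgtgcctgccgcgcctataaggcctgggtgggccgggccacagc
Klf4: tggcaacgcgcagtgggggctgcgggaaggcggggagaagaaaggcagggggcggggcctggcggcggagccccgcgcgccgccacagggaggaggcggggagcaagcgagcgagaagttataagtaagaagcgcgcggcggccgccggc
The MEF2 motif, searched on both strands, was in the Klf2 window, from -118 to -109 relative to the start, and in no other of the 8. Of all 32851 RefSeq windows, 0.5571% held it. The GC box GGGCGG was in 7 of the 8 member windows (all but Klf9) and in 35.66% of all windows. TGACG, the core of cyclic AMP response elements, was in 6 of the 8 (Klf2, Klf3, Klf4, Klf9, Klf13 and Klf15) and in 20.81% of all windows. CCGCACCC was in the Klf15 window and in 1.823% of all windows. No match was found in the 8 windows to the full cyclic AMP response element TGACGTCA, the glucocorticoid receptor site TGTTCT, the CACCC box written as CCACACCC, the TATA box TATAAA, the CArG box or the NF-kB motif, which 1.79%, 18.97%, 3.562%, 13.62%, 1.629% and 5.805% of all windows held. The member windows were 58.33 to 76.67% G or C, against a median of 52.67% over all windows. The shares of all windows were not matched for this, and its part in the matches was not tested. These matches describe letters and were not tested as binding sites.

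The libraries held 4.92 to 5.42 Gb of aligned bases in the knockdown group, 5.00 to 5.52 Gb in the control oligo group and 2.98 to 3.18 Gb in the sham group. Levels are TPM, a length-normalized share of all transcripts in a library. Multi-exon nuclear transcripts took 56.8 to 63.5% of TPM in the knockdown group, 54.3 to 60.8% in the control oligo group and 30.4 to 34.1% in the sham group, so the TPM of an average gene was lower in sham libraries. Mitochondrial transcripts took 22.6 to 28.1%, 24.8 to 28.9% and 0.277 to 0.577% in the same order of groups. Stroke and sham libraries thus differed in the kinds of RNA they held. The median log2 change of all genes was 0.61 for knockdown against sham, 0.56 for control oligo against sham and 0.06 for knockdown against control oligo. Each comparison with sham is therefore given on deposited TPM and again after median-ratio scaling, after which the median of all genes rounds to 0.01 in all 3 comparisons. The scaling uses a single factor for each library, so it leaves any effect of the kinds of RNA captured on single genes. Neurons (6 of 6 markers), astrocytes (5 of 5), oligodendrocytes (5 of 5), microglia (5 of 5) and endothelium (9 of 9) were detected in all 3 groups at 1 TPM or more in every library. A difference in bulk tissue cannot tell fewer cells of a type from less RNA per cell. P-values reflect only the spread between the 3 samples of each group.

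The 10 genes covered a wide range of levels, and their order was similar in the 3 groups. Klf9 had the highest TPM of the 10 in every group, with a mean of 102 in the knockdown group, 94.5 in the control oligo group and 73.5 in the sham group. Klf13, Klf6 and Klf10 followed in that order by mean in all 3 groups, and neighbours among these 3 overlapped between libraries. Klf4 was lowest in all 3 groups, with means of 4.918, 4.839 and 1.497 TPM in the knockdown, control oligo and sham groups. Klf2 ranked 7 of 10 by mean in both stroke groups and 9 of 10 in sham. Coverage was thinnest for the least abundant genes, at 2.24 reads per base for Klf4, 3.57 for Klf2 and 3.65 for Klf5 in their lowest sham library.

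**Figure D1:**
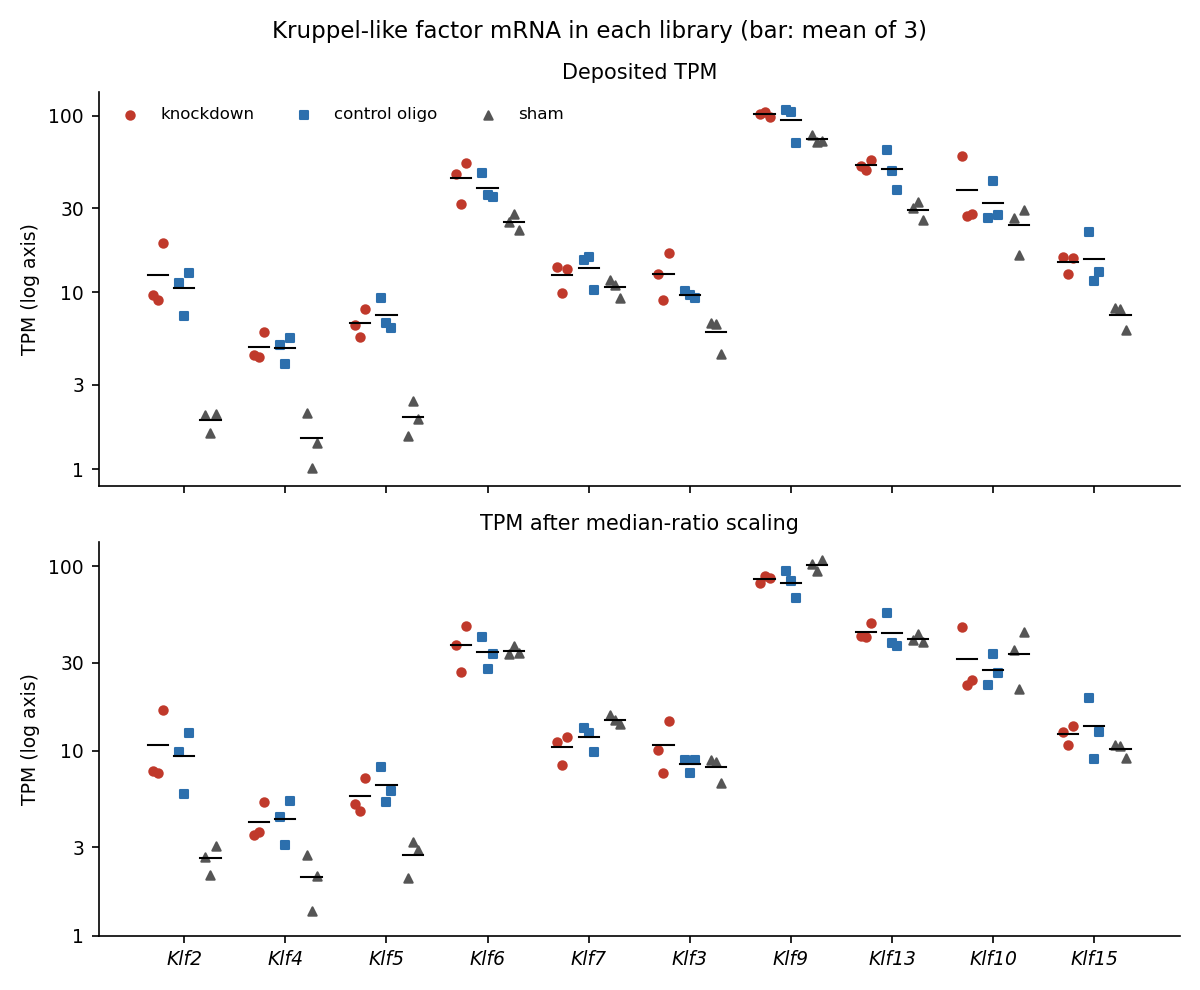
TPM of each of the 10 genes (log axis) in the 3 knockdown, 3 control oligo and 3 sham libraries, as deposited (upper panel) and after median-ratio scaling (lower panel), with a bar at each mean. Klf2 and Klf5 sit higher in all 6 stroke libraries than in all 3 sham libraries in both panels, Klf4 does too, and once scaled Klf7 and Klf9 lie below sham in all 6 stroke libraries. Once scaled, 5522 of 17080 genes lie below sham without overlap in the knockdown group and 5671 in the control oligo group.

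No Kruppel-like factor passed the test between the knockdown and control oligo groups. The test was limma on log2(TPM + 1) over all genes kept, with a Benjamini-Hochberg adjusted p under 0.05, and 0.0117% of all genes passed it in either direction. The adjusted p was 1 for all 10 genes, 0 of the 10 had an unadjusted p under 0.05, and for 0 of the 10 were the groups free of overlap, against 5.4% of all genes. The log2 changes ran from -0.12 (Klf5) to 0.33 (Klf3). The widest 95% interval was that of Klf10 (-0.66 to 1.00) and the narrowest that of Klf9 (-0.33 to 0.58).

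Against sham, more members were higher than lower on deposited TPM, as were genes at large. In the knockdown group 8 of the 10 passed as higher (52.7% of all genes did) and 0 as lower (2143 of 17080 genes did). For 8 of the 10 all knockdown libraries were above all sham libraries (57.8% of all genes). In the control oligo group 7 of the 10 passed as higher (52.6% of all genes did) and 0 as lower (2178 of 17080 genes did). For 7 of the 10 the control oligo libraries were all above the sham libraries (56.2% of all genes). After scaling, Klf2, Klf4 and Klf5 passed as higher in both comparisons. That made 3 of 10 in the knockdown group, where 22.7% of all genes passed as higher, and 3 of 10 in the control oligo group, where 26.1% did. After scaling 1 of 10 passed as lower in the knockdown group (Klf7, with 27.1% of all genes lower) and 0 of 10 in the control oligo group (29.2% of all genes lower). In each scaled comparison 3 of the 10 lay above sham without overlap and 2 below. Of all 17080 genes, 5086 lay above and 5522 below in the knockdown group. In the control oligo group 5255 lay above and 5671 below. The median log2 change of the 10 on deposited TPM was 0.87 for knockdown against sham and 0.69 for control oligo against sham, and after scaling it was 0.19 and 0.07. Both comparisons use the same sham libraries.

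**Figure D2:**
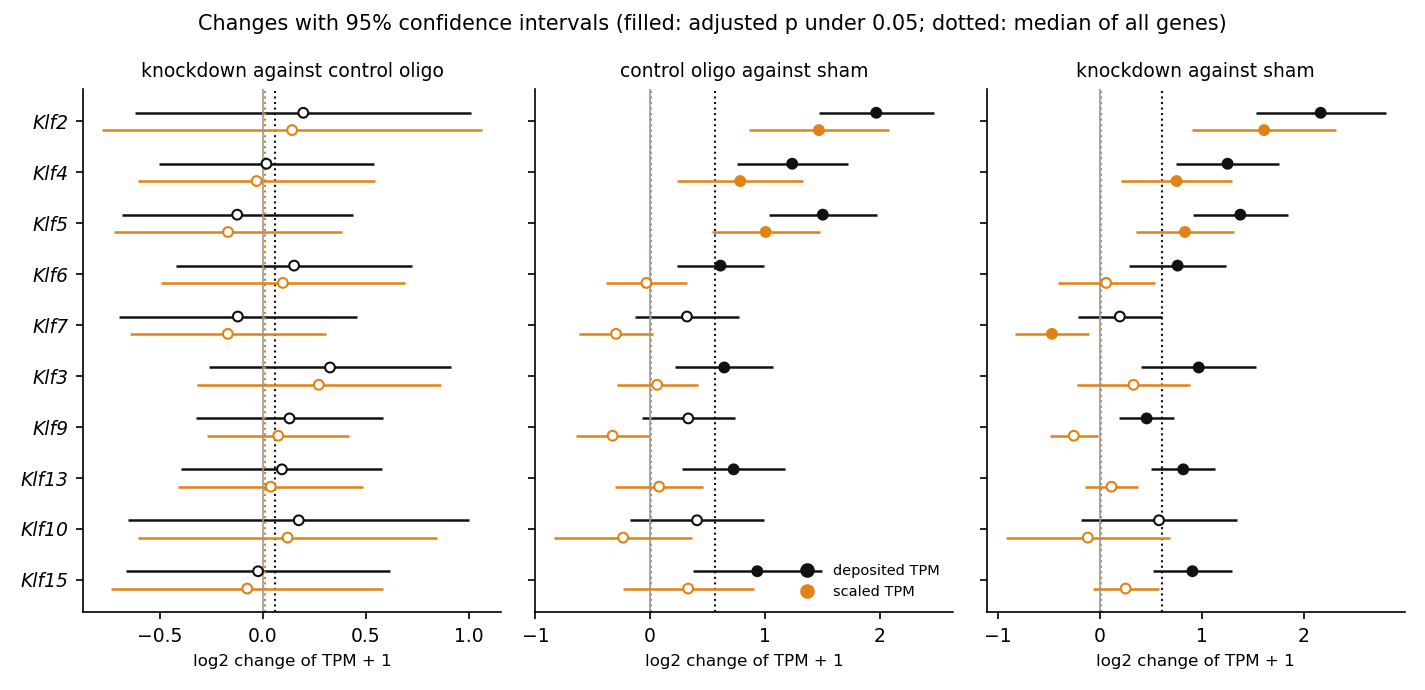
Log2 change of TPM + 1 with 95% confidence intervals for the 10 genes in the 3 comparisons, on deposited TPM (black) and after scaling (orange). Filled points passed an adjusted p under 0.05, and dotted lines show the median of all genes. Klf2, Klf4 and Klf5 are filled on both scales against sham, and no point is filled between knockdown and control oligo.

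Klf2, the flow-induced factor of endothelium that also keeps T cells quiescent, had the largest change of the 10 genes against sham. Klf2 (ENSMUSG00000055148, chr8:72319033-72321656, GRCm38) had 9.72, 9.06 and 19.1 TPM in the knockdown libraries, 11.3, 7.40 and 12.9 TPM in the control oligo libraries, and 2.01, 1.61 and 2.04 TPM in the sham libraries. All 6 stroke libraries lay above all 3 sham libraries, knockdown replicate 4 was the highest, and the 2 stroke groups overlapped. Klf2 averaged 12.6 ± 5.62 TPM in the knockdown group, 10.5 ± 2.84 in the control oligo group and 1.89 ± 0.242 in the sham group (SD, n = 3 each). Klf2 rose by 2.17 on the log2 scale in the knockdown group against sham (95% interval 1.53 to 2.81, limma adjusted p = 0.000363). It rose by 1.97 in the control oligo group against sham (1.47 to 2.47, adjusted p = 0.000127). After scaling the changes were 1.61 (adjusted p = 0.00411) and 1.47 (adjusted p = 0.00248), and Klf2 passed with each of the 6 libraries left out in turn in both comparisons. Between knockdown and control oligo the change was 0.20 (95% interval -0.62 to 1.01).

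Klf4, which acts with Klf2 in endothelium, also in monocytes and astrocytes, and is one of the reprogramming factors of pluripotency, was the least abundant member. Klf4 (ENSMUSG00000003032, chr4:55527143-55532466) had 4.42, 4.33 and 6.00 TPM in the knockdown libraries, 5.03, 3.95 and 5.54 TPM in the control oligo libraries, and 2.07, 1.02 and 1.40 TPM in the sham libraries. The stroke libraries were all above the sham libraries, and the 2 stroke groups overlapped. On the log2 scale Klf4 rose by 1.26 in the knockdown group (adjusted p = 0.00165) and by 1.24 in the control oligo group (adjusted p = 0.0011). After scaling it rose by 0.76 (adjusted p = 0.0306) and by 0.79 (95% interval 0.24 to 1.33, adjusted p = 0.0243). The scaled call rested on single libraries: with each left out in turn, Klf4 passed in 2 of 6 fits in each comparison, with adjusted p from 0.0323 to 0.0967 in the knockdown group and from 0.0144 to 0.0804 in the control oligo group. Over multi-exon transcripts alone the rise in the knockdown group was 0.73 and did not pass (adjusted p = 0.0749). In the scaled knockdown comparison the call ended without knockdown replicate 3 or 4 or without sham replicate 2 or 3. In the scaled control oligo comparison it ended without control oligo replicate 1 or 3 or without sham replicate 2 or 3.

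Klf5, an activator best known from smooth muscle, epithelium and proliferating cells, was higher in both stroke groups on both scales. Klf5 (ENSMUSG00000005148, chr14:99298691-99313405) had 6.50, 5.62 and 8.11 TPM in the knockdown libraries, 9.35, 6.72 and 6.33 TPM in the control oligo libraries, and 1.55, 2.44 and 1.92 TPM in the sham libraries. Each stroke library was higher than each sham library, and the stroke groups overlapped. Klf5 rose by 1.38 in the knockdown group (adjusted p = 0.000668) and by 1.51 in the control oligo group (adjusted p = 0.000344), and after scaling by 0.84 (95% interval 0.35 to 1.32, adjusted p = 0.013) and by 1.01 (0.54 to 1.48, adjusted p = 0.00443). The scaled call held in 6 of 6 fits that left out a library in the control oligo group and in 5 of 6 in the knockdown group, where the adjusted p was 0.0514 without sham replicate 1.

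The pair with the most similar zinc fingers, Klf6 and Klf7, both promote axon growth, and only Klf6 passed against sham on deposited TPM; the difference between the 2 genes was not tested. Klf6, which is also an injury-induced activator of vessels and fibroblasts, had 47.1, 31.7 and 54.3 TPM in the knockdown libraries, 47.4, 35.5 and 34.8 TPM in the control oligo libraries, and 25.1, 27.7 and 22.5 TPM in the sham libraries (ENSMUSG00000000078, chr13:5861482-5870394). The stroke libraries were above sham on deposited TPM, by 0.77 in the knockdown group (adjusted p = 0.0121, but 0.053 without sham replicate 3) and by 0.61 in the control oligo group (adjusted p = 0.0107). After scaling the changes were 0.06 and -0.03, and neither passed. Klf7, a neuronal member needed for sensory and olfactory axons, had 14.0, 9.93 and 13.6 TPM in the knockdown libraries, 15.3, 15.8 and 10.3 TPM in the control oligo libraries, and 11.7, 11.1 and 9.31 TPM in the sham libraries (ENSMUSG00000025959, chr1:64029447-64122282). Klf7 groups overlapped on deposited TPM and no comparison passed, although control oligo against sham gave an adjusted p of 0.0216 without control oligo replicate 3. After scaling, all knockdown libraries (8.34 to 11.9) were below all sham libraries (14.0 to 15.5), a change of -0.47 (95% interval -0.83 to -0.11, adjusted p = 0.0393). That call held in 1 of 6 fits with a library left out, the one without knockdown replicate 4, and adjusted p ran up to 0.128. The scaled change of Klf7 in the control oligo group was -0.30 (-0.62 to 0.03, adjusted p = 0.105), with all libraries (9.87 to 13.3) below sham. Of all 17080 genes, 5522 lay below sham without overlap after scaling in the knockdown group and 5671 in the control oligo group.

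Among the repressors, Klf3, which recruits the corepressor CtBP, was higher after stroke on deposited TPM alone. Klf3 had 12.7, 9.08 and 16.6 TPM in the knockdown libraries, 10.2, 9.65 and 9.30 TPM in the control oligo libraries, and 6.75, 6.59 and 4.47 TPM in the sham libraries (ENSMUSG00000029178, chr5:64803388-64832901). The stroke libraries were all higher than the sham libraries, and the control oligo libraries lay close together while the knockdown libraries spread. Klf3 rose by 0.97 in the knockdown group (adjusted p = 0.00892) and by 0.65 in the control oligo group (adjusted p = 0.0146, but 0.0573 without sham replicate 3). The scaled changes were 0.33 (95% interval -0.22 to 0.89) and 0.06 (-0.29 to 0.41), and neither passed.

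Klf9 and Klf13, related repressors that recruit the Sin3 complex, were the most abundant members. Klf9, which responds to glucocorticoids and thyroid hormone and matures with neurons, had 102, 105 and 97.9 TPM in the knockdown libraries, 108, 105 and 70.1 TPM in the control oligo libraries, and 77.6, 71.1 and 71.9 TPM in the sham libraries (ENSMUSG00000033863, chr19:23141226-23166911). The 3 knockdown libraries lay above sham on deposited TPM, and control oligo replicate 3 fell below all of them. Klf9 rose by 0.46 in the knockdown group (adjusted p = 0.00925), and in the control oligo group the change was 0.33 (adjusted p = 0.129, but 0.00469 without control oligo replicate 3). After scaling the sign turned: all libraries of both stroke groups were below all sham libraries, by -0.25 in the knockdown group (adjusted p = 0.0701) and -0.33 in the control oligo group (adjusted p = 0.0779), and neither passed. Such a lack of overlap was common after scaling, with 5522 of 17080 genes below sham in the knockdown group and 5671 in the control oligo group.

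Klf13 had 52.1, 49.1 and 56.4 TPM in the knockdown libraries, 63.8, 48.7 and 38.2 TPM in the control oligo libraries, and 30.2, 32.3 and 25.7 TPM in the sham libraries (ENSMUSG00000052040, chr7:63886351-63938915). Stroke libraries were all above sham libraries. Klf13 rose by 0.82 in the knockdown group (adjusted p = 0.00124) and by 0.73 in the control oligo group (adjusted p = 0.0109), and after scaling the changes were 0.12 and 0.08 and did not pass.

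Klf10, the TGF-beta inducible early gene, had 58.8, 27.2 and 27.7 TPM in the knockdown libraries, 26.2, 42.5 and 27.5 TPM in the control oligo libraries, and 26.5, 16.3 and 29.2 TPM in the sham libraries (ENSMUSG00000037465, chr15:38294413-38300707). On deposited TPM knockdown replicate 2 was the highest library, and all 3 groups overlapped. After scaling it had 46.9, close to sham replicate 3 with 43.9, and over multi-exon transcripts sham replicate 3 was higher. The coefficient of variation of Klf10 in the knockdown group, 47.8%, was the highest of the 10 genes in any group. No comparison of Klf10 passed, with changes of 0.58 for knockdown against sham and 0.41 for control oligo against sham on deposited TPM, and -0.12 and -0.24 after scaling.

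Klf15, a glucocorticoid-responsive regulator of amino acid and lipid metabolism that in brain is found mainly in astrocytes, had 15.9, 12.8 and 15.6 TPM in the knockdown libraries, 22.05, 11.6 and 13.1 TPM in the control oligo libraries, and 8.12, 8.01 and 6.10 TPM in the sham libraries (ENSMUSG00000030087, chr6:90462576-90475238). All stroke libraries were above all sham libraries, and control oligo replicate 1 was the highest. Klf15 rose by 0.91 in the knockdown group (adjusted p = 0.00216) and by 0.93 in the control oligo group (adjusted p = 0.00956), and after scaling the changes were 0.26 (95% interval -0.07 to 0.58) and 0.33 (-0.24 to 0.90) and did not pass.

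The shares of the 10 genes in their summed TPM do not depend on how libraries are scaled. Klf2 made up 3.01 to 6.06% of the sum in the knockdown group, 2.58 to 5.67% in the control oligo group and 0.903 to 1.17% in the sham group. Klf4 made up 1.37 to 1.90%, 1.38 to 2.43% and 0.572 to 1.08% in the same order of groups, and Klf5 2.01 to 2.57%, 2.34 to 2.94% and 0.808 to 1.37%. For these 3 genes the shares in the stroke groups did not overlap those in sham. Klf9 showed the reverse, with 31.0 to 39.8% in the knockdown group, 30.8 to 36.7% in the control oligo group and 39.9 to 41.2% in the sham group, so that the stroke shares all lay under the sham shares. The Klf7 share was lower than in sham in the knockdown group (3.77 to 4.32%, against 5.33 to 6.21% in sham), and in the control oligo group it reached into the sham range (4.50 to 5.51%). The scaled sum of the 10 was 221 to 276 in the knockdown group, 219 to 278 in the control oligo group and 236 to 263 in the sham group, with overlap of all 3.

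**Figure D3:**
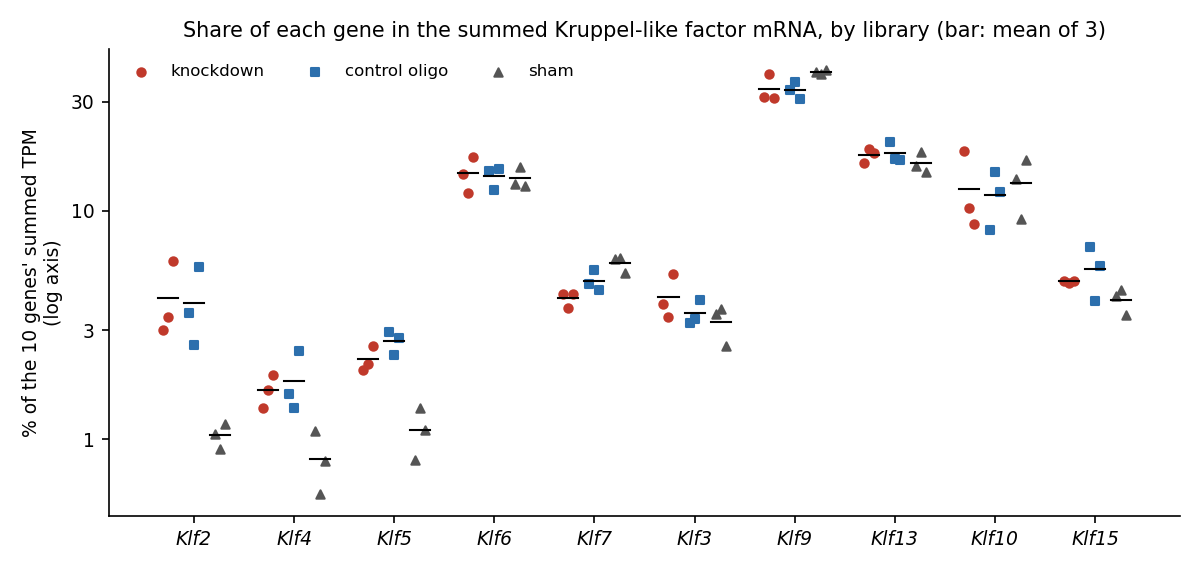
Share of each gene in the summed TPM of the 10 genes (percent, log axis) in each knockdown, control oligo and sham library, with a bar at each mean. The Klf2, Klf4 and Klf5 shares of all 6 stroke libraries are above those of the 3 sham libraries, and the Klf9 shares are below them.

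Most endothelial markers were also higher in the stroke groups on deposited TPM, and their part in the Klf2 and Klf4 results was not tested. In the knockdown group against sham 7 of 9 rose and 0 fell (52.7% of all genes rose and 2143 of 17080 fell). After scaling 4 rose and 1 fell (22.7% and 27.1% of all genes). In control oligo against sham 7 of 9 rose and 1 fell (52.6% of all genes rose and 2178 of 17080 fell). After scaling 4 rose and 1 fell (26.1% and 29.2% of all genes). The marker that fell in the control oligo group on deposited TPM was the transporter Slco1a4, named after its values were seen, with 11.5, 9.82 and 31.2 TPM in the knockdown libraries, 7.86, 16.6 and 5.32 TPM in the control oligo libraries, and 23.9, 28.4 and 22.3 TPM in the sham libraries. Its control oligo libraries were all under the sham libraries, and the knockdown libraries overlapped with sham. The summed TPM of 9 endothelial markers was 261, 246 and 534 in the knockdown libraries, 250, 239 and 295 in the control oligo libraries, and 112, 120 and 97.5 in the sham libraries. Scaled, the sums were 207 to 468, 188 to 283 and 147 to 160 in the same order of groups. Knockdown replicate 4 had the highest sum and also the highest Klf2. Klf2 TPM as a percentage of this sum, a measure chosen after the values were seen, was 3.72, 3.68 and 3.58% in the knockdown libraries, 4.52, 3.09 and 4.39% in the control oligo libraries, and 1.80, 1.34 and 2.09% in the sham libraries. The stroke ratios were all above the sham ratios, and for this sum the knockdown libraries lay close together, replicate 4 included. They spread more against single markers, with 363, 356 and 159% of Tie1 and 184, 126 and 88.2% of Emcn in replicates 2, 3 and 4. Among knockdown libraries, replicate 4 had the highest Klf2 ratio to Flt1 and Ly6c1 and the lowest to each of the other markers. Set against each marker alone, the Klf2 ratio was above sham without overlap for 6 of 9 markers in the knockdown group and 7 of 9 in the control oligo group, and overlapped for the others, among them Cdh5, the cadherin of endothelial junctions. The Klf4 ratio to the sum overlapped between stroke and sham (1.12 to 1.76% in the knockdown group, 1.65 to 2.01% in the control oligo group, 0.847 to 1.85% in the sham group). The Klf5 ratio overlapped in the knockdown group (1.52 to 2.49%) but not in the control oligo group (2.15 to 3.73%), against 1.38 to 2.03% in the sham group.

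**Figure D4:**
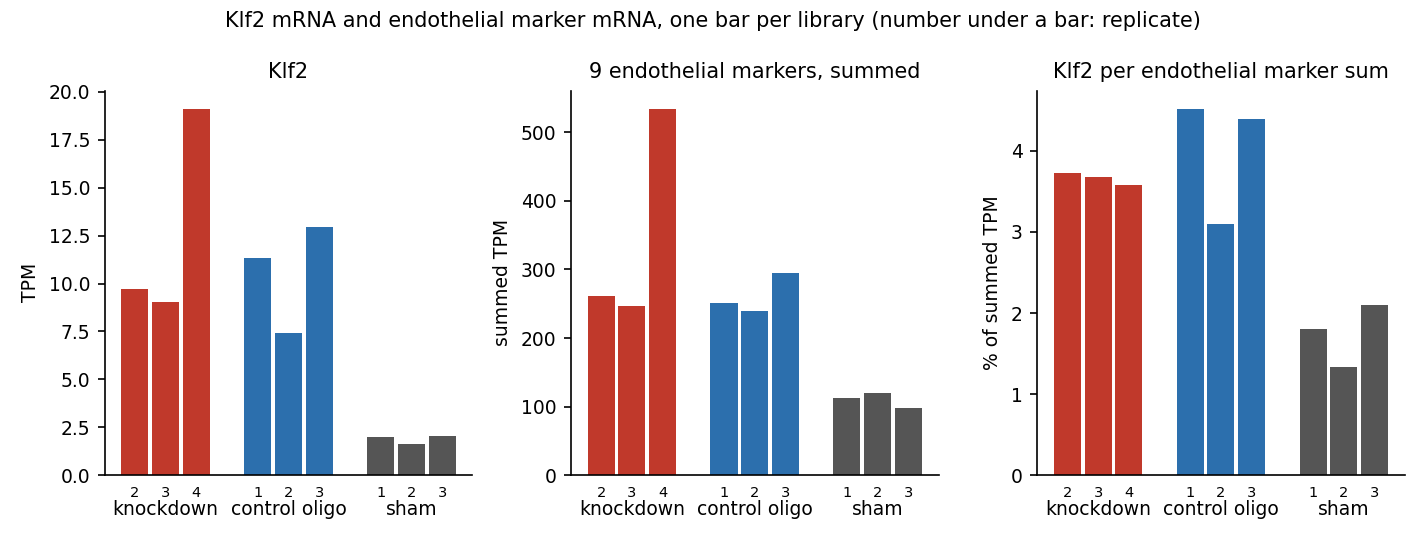
Klf2 TPM (left), the summed TPM of 9 endothelial markers (middle) and Klf2 as a percentage of that sum (right), with 1 bar for each library and its replicate number below. Knockdown replicate 4 is highest in the first 2 panels and not in the third, where all stroke bars (3.09 to 4.52%) are above the sham bars (1.34 to 2.09%).

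Blood cell markers differed more between libraries, and their part was not tested. The summed TPM of 7 neutrophil markers was 77.1 to 1432 in the knockdown group, 31.4 to 342 in the control oligo group and 2.59 to 7.78 in the sham group, where Retnlg was at 0 in every library. The sum of 5 monocyte markers was 27.9 to 568, 23.6 to 118 and 8.62 to 20.9 in the same order, and F10 was at 0 in every sham library. Knockdown replicate 4 held the highest sum of both. T and B cell markers, 5 in all, summed to 11.4 to 16.9, 14.5 to 25.0 and 18.0 to 23.0 TPM, with Ms4a1 at 0 in the control oligo group and Cd3e, Cd3g and Ms4a1 at 0 in the sham group. Trbc2 carried nearly all of this sum, at 10.9 to 16.8, 14.0 to 24.6 and 18.0 to 22.8 TPM. Cd3e, Cd3g, Cd79a and Ms4a1 were at most 0.723 TPM in any library, so the sum describes Trbc2 only. Scaled, it was 9.54 to 13.5, 14.0 to 21.7 and 26.4 to 30.5. The other marker sums follow for the knockdown, control oligo and sham groups, on deposited TPM and then after scaling. Microglial markers summed to 206 to 387, 199 to 220 and 112 to 132 TPM, mural cell markers to 61.8 to 114, 56.9 to 72.3 and 52.5 to 61.1 TPM, and fibroblast markers to 40.2 to 152, 34.5 to 56.0 and 15.3 to 19.7 TPM. Scaled microglial sums overlapped with sham (173 to 339, 173 to 191 and 166 to 175). Scaled mural sums were 49.3 to 99.5, 44.7 to 64.8 and 78.9 to 80.8, with the control oligo libraries all below sham. Scaled fibroblast sums stayed above sham (32.1 to 133, 27.1 to 48.8 and 20.3 to 26.1). Neuron markers summed to 2897 to 4672, 3654 to 4186 and 2387 to 2732 TPM, astrocyte markers to 939.9 to 1044, 891 to 1184 and 479 to 577 TPM, and oligodendrocyte markers to 963 to 1155, 887 to 1297 and 530.4 to 753 TPM. After scaling, neuron sums were 2537 to 3724, 3185 to 3659 and 3512 to 3620, and both stroke groups overlapped with sham. Astrocyte sums overlapped too (749 to 877, 699 to 1139 and 720 to 764), as did oligodendrocyte sums (768 to 1010, 707 to 1248 and 702 to 1133). Dissection markers also varied: choroid plexus and ependyma markers summed to 4.05 to 63.8, 5.50 to 6.55 and 1.68 to 1.98 TPM, striatal markers to 95.5 to 209.8, 159 to 184 and 42.8 to 54.3 TPM, and erythroid markers to 161 to 1717, 91.4 to 1266 and 154 to 362 TPM. Scaled choroid and ependyma sums stayed above sham (3.54 to 53.6, 4.79 to 5.57 and 2.22 to 2.98). Scaled striatal sums did too (83.6 to 167, 138 to 177 and 64.3 to 72.0), while scaled erythroid sums overlapped. Without knockdown replicate 4 the rise of Klf2 in the knockdown group against sham was 1.85 on deposited TPM and 1.27 after scaling, and it passed both times.

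The wider Klf and Sp family, whose Sp members bind the same GC boxes, gave a mixed picture. Of 16 further genes, 10 were kept by the filter, and Klf1, Klf17, Sp5, Sp6, Sp7 and Sp8 were not. In the knockdown group against sham 5 rose and 2 fell (52.7% of all genes rose and 2143 of 17080 fell). After scaling 4 rose and 2 fell (22.7% and 27.1% of all genes). In the control oligo group against sham 5 rose and 2 fell (52.6% of all genes rose and 2178 of 17080 fell). After scaling 4 rose and 4 fell (26.1% and 29.2% of all genes). Between knockdown and control oligo 0 of the 10 passed. The median log2 change was 0.45 for knockdown against sham and 0.49 for control oligo against sham, and after scaling -0.08 and 0.07.

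Sp2, a housekeeping member that acts with Nf-y, had 11.6, 9.28 and 11.4 TPM in the knockdown libraries, 11.2, 11.9 and 8.85 TPM in the control oligo libraries, and 1.71, 1.54 and 1.61 TPM in the sham libraries. Its log2 changes against sham were 2.16 in the knockdown group and 2.15 in the control oligo group, and 1.62 and 1.66 after scaling, all of which passed. Klf16, a GC-box repressor, had 60.9, 51.7 and 32.3 TPM in the knockdown libraries, 44.0, 46.4 and 24.8 TPM in the control oligo libraries, and 11.7, 13.03 and 10.9 TPM in the sham libraries, and rose in both comparisons on both scales (scaled changes 1.21 and 0.94). Klf14 and Sp9 also rose in both comparisons on both scales, by 0.85 and 0.88 in the knockdown group and by 0.98 and 0.74 in the control oligo group on deposited TPM. In the sham libraries Klf14 was at 0.0922 to 0.141 TPM and Sp9 at 0.211 to 0.523 TPM. Both were kept only through stroke libraries, so the filter itself favours their rise.

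In the other direction, Sp4, a neuronal Sp factor, had 5.79, 5.94 and 5.67 TPM in the knockdown libraries, 4.044, 5.498 and 3.598 TPM in the control oligo libraries, and 11.40, 11.97 and 10.9999 TPM in the sham libraries. Stroke libraries were all under the sham libraries, and Sp4 fell by 0.87 in the knockdown group and by 1.23 in the control oligo group (adjusted p = 0.000994 and 0.000515), and by 1.52 and 1.82 after scaling. Klf12, a CtBP-binding repressor, had 3.10, 1.94 and 4.02 TPM in the knockdown libraries, 3.00, 5.34 and 1.49 TPM in the control oligo libraries, and 7.24, 8.70 and 6.66 TPM in the sham libraries. Klf12 fell in both comparisons on both scales, by 1.11 in the knockdown group and by 1.09 in the control oligo group on deposited TPM (the control oligo adjusted p was 0.0521 with no filter on low values).

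**Figure D5:**
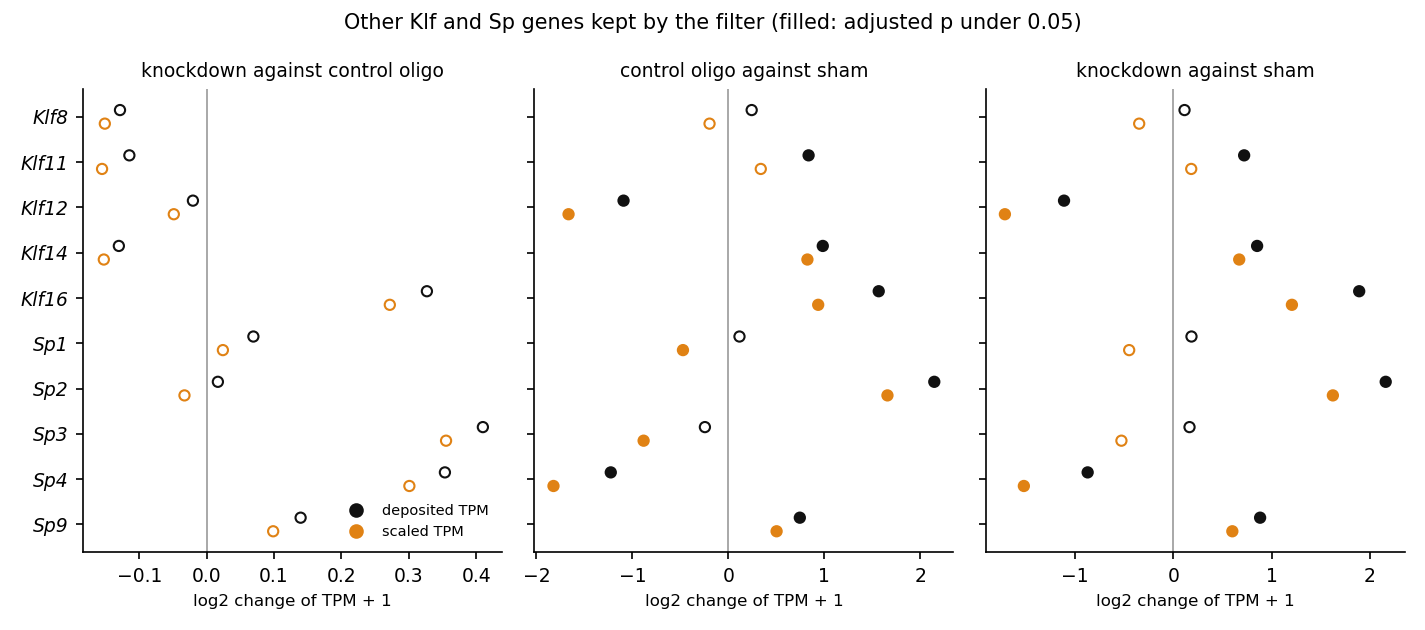
Log2 change of TPM + 1 for the 10 further Klf and Sp genes kept by the filter in the 3 comparisons, on deposited TPM (black) and after scaling (orange), filled where the adjusted p was under 0.05. Sp2, Klf16, Klf14 and Sp9 are filled on the right of 0 and Sp4 and Klf12 on the left on both scales against sham, and no point is filled between knockdown and control oligo. Klf14 and Sp9 were kept by the filter only through stroke libraries.

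Genes of the pathway that induces Klf2 and Klf4 were described from a list of 12, all kept. In the control oligo group against sham 6 of 12 rose and 0 fell (median change 0.60, against 0.56 over all genes). Of all genes 52.6% rose and 2178 of 17080 fell. After scaling 4 rose and 3 fell (median -0.04, against 0.01 over all genes, of which 26.1% rose and 29.2% fell). Piezo1, the flow-sensing channel, had 7.81, 5.46 and 10.8 TPM in the knockdown libraries, 9.70, 11.6 and 7.11 TPM in the control oligo libraries, and 1.65, 1.54 and 0.506 TPM in the sham libraries. Mef2d, a MEF2 factor, had 111, 90.4 and 85.5 TPM in the knockdown libraries, 87.2, 111 and 75.0 TPM in the control oligo libraries, and 28.1, 28.0 and 22.3 TPM in the sham libraries. In the control oligo group Piezo1 rose by 2.25 and Mef2d by 1.75, and by 1.82 and 1.10 after scaling. Mapk7 (ERK5) and its kinase Map2k5 (MEK5) rose by 1.12 and 0.94, and after scaling by 0.57 and 0.31, and both passed on both scales. In the knockdown group against sham 7 of 12 rose and 1 fell (52.7% of all genes rose and 2143 of 17080 fell). After scaling 3 rose and 3 fell (22.7% and 27.1% of all genes).

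Endothelial targets were listed apart as genes that Klf2 and Klf4 are known to induce and genes they are known to repress. Of 6 induced genes, all kept, 5 rose in the control oligo group against sham (median 1.70, with 52.6% of all genes higher) and 3 after scaling (median 1.29, with 26.1% of all genes higher), and Adamts4 passed on neither scale. Aqp1, a water channel, rose by 1.79, Cyp1b1, a cytochrome P450, by 2.12 and Adamts1, a secreted protease, by 2.17, and by 1.57, 1.72 and 1.60 after scaling. Aqp1 was at 0.0651 to 0.261 TPM in sham libraries and was kept by the filter only through stroke libraries. Thbd, the thrombomodulin that makes endothelium anticoagulant, rose by 1.61, and its scaled change of 1.01 did not pass (adjusted p = 0.0635). Of 6 repressed genes 5 were kept and 4 rose (median 2.20), and 3 rose after scaling (median 1.87), beside the same shares of all genes. Angpt2, an angiopoietin that destabilizes vessels, rose by 2.20. Ccl2, a monocyte chemokine, rose by 4.50. Angpt2 and Ccl2 were under 1 TPM in every sham library, so they too were kept only through stroke libraries. Edn1, the vasoconstrictor endothelin, rose by 1.74, and its scaled change of 1.29 did not pass (adjusted p = 0.0545). In the knockdown group against sham 4 of 6 induced and 4 of 5 repressed genes rose (52.7% of all genes did). After scaling 3 and 3 rose (22.7% of all genes did).

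Genes of glucocorticoid signalling were listed because Klf9, Klf13 and Klf15 are known to respond to the same hormone. Of 11 genes, all kept, 7 rose and 1 fell in the control oligo group against sham (median 1.65, with 52.6% of all genes higher and 2178 of 17080 lower). After scaling 6 rose and 3 fell (median 1.00, with 26.1% of all genes higher and 29.2% lower). Fkbp5, a chaperone that limits the receptor, had 67.6, 70.3 and 94.1 TPM in the knockdown libraries, 74.2, 69.6 and 46.9 TPM in the control oligo libraries, and 7.83, 9.25 and 6.27 TPM in the sham libraries. Fkbp5 rose by 2.87, Ddit4, an inhibitor of mTOR signalling, by 2.81, Cebpd, a transcription factor, by 2.54 and Errfi1, an inhibitor of the EGF receptor, by 1.92 in the control oligo group. Cebpd was under 1 TPM in every sham library and was kept only through stroke libraries. The gene that fell was Nr3c2, the mineralocorticoid receptor, by 0.61 (named after its value was seen). For knockdown against sham 8 rose and 0 fell (52.7% of all genes rose and 2143 of 17080 fell). After scaling 6 rose and 2 fell (22.7% and 27.1% of all genes). Between knockdown and control oligo 0 of 11 passed, and Tsc22d3, the leucine zipper gene induced by glucocorticoids, had the smallest p of the list. Tsc22d3 had 81.3, 103 and 117 TPM in the knockdown libraries, 40.0, 59.6 and 51.2 TPM in the control oligo libraries, and 49.0, 41.7 and 40.8 TPM in the sham libraries. Its change was 0.99 for knockdown against control oligo with all knockdown libraries above all control oligo libraries, and it did not pass over all genes (limma unadjusted p = 0.00229, adjusted p = 1).

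Corepressors and degradation factors of the family were counted in a list of 11, all kept. In the control oligo group against sham 8 rose and 1 fell (median 0.69, with 52.6% of all genes higher and 2178 of 17080 lower). After scaling 2 rose and 2 fell (median 0.05, with 26.1% of all genes higher and 29.2% lower). Sap30, a subunit of the Sin3 complex, rose by 2.27 and the deacetylase Hdac1 by 1.72, and by 1.68 and 1.12 after scaling. Hdac2 and Sin3b rose by 0.89 and 0.82 on deposited TPM, and their scaled changes of 0.24 and 0.17 did not pass. The gene that fell was Fbxw7, the ubiquitin ligase subunit that targets Klf2 and Klf5 proteins, with 127, 150 and 93.4 TPM in the knockdown libraries, 110, 142 and 130 TPM in the control oligo libraries, and 186, 188 and 167 TPM in the sham libraries (named after its values were seen). Fbxw7 fell by 0.50 in the control oligo group and by 1.17 after scaling. For knockdown against sham 9 rose and 1 fell (52.7% of all genes rose and 2143 of 17080 fell). After scaling 2 rose and 2 fell (22.7% and 27.1% of all genes).

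Of 10 genes of TGF-beta signalling, the input of Klf10, 7 rose and 0 fell in the control oligo group against sham (median 0.63, with 52.6% of all genes higher and 2178 of 17080 lower). After scaling 1 rose and 3 fell (median 0.05, with 26.1% of all genes higher and 29.2% lower). The gene that rose on both scales was Tgfb1, the ligand, with 8.82, 8.34 and 22.4 TPM in the knockdown libraries, 6.88, 6.78 and 13.7 TPM in the control oligo libraries, and 0.605, 0.253 and 0.477 TPM in the sham libraries. Tgfb1 rose by 2.75, and by 2.42 after scaling, while Smad3, a signal transducer, rose by 0.77 on deposited TPM and had a scaled change of 0.13. Tgfb1 was kept by the filter only through stroke libraries. Of 10 axon growth and injury genes tied to Klf4, Klf6, Klf7 and Klf9, 8 were kept and 6 rose in the control oligo group, and 6 after scaling (medians 1.33 and 0.68, beside the same shares of all genes). Cdkn1a, a cell cycle inhibitor and known target of Klf4 and Klf6, had 147, 151 and 135 TPM in the knockdown libraries, 159, 142 and 143 TPM in the control oligo libraries, and 3.73, 3.50 and 5.01 TPM in the sham libraries. Cdkn1a rose by 4.89, the injury factor Atf3 by 5.65, the AP-1 subunit Jun by 3.37 and the cytokine signal transducer Stat3 by 1.59 in the control oligo group. Atf3 was at 0.247 to 0.469 TPM in sham libraries and was kept only through stroke libraries. For knockdown against sham 6 TGF-beta genes rose and 1 fell (2 and 2 after scaling), and 7 axon growth genes rose and 0 fell (4 and 1 after scaling). Of all genes 52.7% rose and 2143 of 17080 fell in that comparison, and after scaling 22.7% rose and 27.1% fell. In none of these 7 lists did a gene pass between knockdown and control oligo in this test, as in the lists of members and of other Klf and Sp genes.

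The genes whose profile over the 9 libraries was most like that of a member differed from member to member. Likeness was the root mean square difference of log2(TPM + 1) after centring each gene on its own mean, and for all of them the contrast of stroke with sham libraries is shared. Nearest to Klf2 were Clic4 (0.110), Pdpn (0.140) and Sod3 (0.141). Nearest to Klf4 were Smpd2 (0.106), Smox (0.109) and Axl (0.123), and to Klf5 Gm10524 (0.137), Rgs3 (0.143) and Foxo1 (0.145). Nearest to Klf3 were Zic5 (0.116), Nadk (0.117) and Vsig10 (0.125), to Klf6 Hyal2 (0.0812), Snx5 (0.115) and Npc1 (0.120), and to Klf7 Inpp1 (0.0797), Map1a (0.0886) and Klf8 (0.0891). The more abundant Klf9 had Acsl6 (0.0593), Mfhas1 (0.0702) and Stt3b (0.0715), and Klf13 had Pde4b (0.0680), Cfap74 (0.0869) and Slc15a4 (0.0884). Klf15 had Sesn1 (0.112), Prickle3 (0.115) and Espn (0.122), and Klf10 had Proser3 (0.164), Tmsb15l (0.177) and Snx21 (0.184), the least alike of the 10 sets. Klf8 was the single family member in these sets.

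Most members were carried by a single transcript, so that a gene's level was that of its main mRNA. Klf2, Klf5, Klf9 and Klf10 had 1 transcript each in the files. Klf15 had 5, and its 2 most abundant differ in the first exon. ENSMUST00000032174 held 49.5 ± 6.24% of Klf15 TPM in the knockdown group, 51.8 ± 6.16% in the control oligo group and 51.4 ± 16.6% in the sham group (SD, n = 3 each). ENSMUST00000113530 held 34.0 ± 8.40%, 28.2 ± 5.26% and 18.1 ± 9.59%, and these ranges overlapped between the groups. ENSMUST00000203039 held 0.496 to 1.25% in the knockdown group, 0.265 to 1.90% in the control oligo group and 6.44 to 10.5% in the sham group, without overlap between stroke and sham. ENSMUST00000135075 of Klf7 was at 0 in all knockdown libraries, at 0 to 4.51% of the gene in the control oligo libraries and at 6.62 to 9.14% in the sham libraries. The most frequent number of aligned bases in low transcripts was 282 in the stroke libraries and 51 in the sham libraries, and splits between transcripts of 1 gene were estimated by the authors' software, so they are less certain than the sums per gene. Genes that overlap Klf3, Klf7, Klf9 and Klf13 were at most 3.52 TPM in any library. The counting used no strand setting, so their reads may be mixed with those of the members. These TPM do not bound that mixing, because reads given to the wrong gene are missing from them.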

How the data were processed

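The deposited files were StringTie tables, 1 for each library, holding for each of 131100 transcripts a mean coverage per base, an FPKM and a TPM as the authors' software wrote them. Alignment was with HISAT2 2.0 to GRCm38/mm10 and quantification with StringTie 1.3, per the submitters' processing notes. The file headers give StringTie 1.3.4d with the options -e and -B and no strand option. Per the labels' protocols the stroke libraries were poly(A)-selected, stranded and paired-end, whereas for sham the sources used here give no library details. Read counts were not used here, so no count test was run.

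TPM was summed over the transcripts of a gene. Genes with at least 1 TPM in at least 3 of 9 libraries were kept. Klf14, Sp9, Aqp1, Angpt2, Ccl2, Cebpd, Atf3 and Tgfb1 were under 1 TPM in every sham library. They were kept only through stroke libraries, so the filter itself favours a rise of these genes against sham. For each comparison, log2(TPM + 1) of the 6 libraries concerned entered a limma 3.58.1 fit with an intensity trend (R 4.3.3). This scale understates changes of low genes. Benjamini-Hochberg adjustment ran over all 17080 genes with a threshold of 0.05, and 95% intervals come from the same fit. For median-ratio scaling, a library's TPM was divided by the median of its ratios to the geometric means over libraries. Other alternatives were FPKM, a pseudocount of 0.1, no filter, TPM over multi-exon nuclear transcripts, all 9 libraries in one fit, a replicate block, and each library left out. The fit was tested on simulated data. For knockdown against control oligo it recovered 28 of 100 simulated log2 changes of 1 and 76 of 100 of 2. For control oligo against sham it recovered 46 and 87, and for knockdown against sham 48 and 91. Between knockdown and control oligo many changes of 1 log2 unit would thus be missed. The simulation changed few genes and drew none of them from the lowest. Far more genes passed in the real comparisons with sham, which eases the adjustment, so the recovery there does not measure their sensitivity. Motifs and open reading frames were read from RefSeq windows and GENCODE M21 transcripts with Python 3.11.15 (pandas 2.3.3, numpy 2.4.6), and plots were drawn with matplotlib 3.10.9.

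The members, the 8 lists of further genes and the 13 lists of cell type markers were chosen with earlier results of these data known. All members were named. Of the other Klf and Sp genes the 6 with the smallest p in any comparison were named, of each other list up to 4 with the smallest p in the comparison described (1 such gene is not reported here), and for likeness the nearest genes of up to 3 per member. Read depth is given as aligned bases, from the ratio of deposited coverage to FPKM.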

Additional observations from a re-analysis of the deposited data

How the results depend on the processing

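Between knockdown and control oligo, 0 members passed under every alternative tried. Against sham, the number of members passing as higher depended on scaling. For control oligo it was 7 on TPM, and 3 with FPKM, 3 after median-ratio scaling and 3 with TPM over multi-exon nuclear transcripts, and for knockdown it was 8, and 3, 3 and 2. Members passing as lower numbered 1 with multi-exon TPM for control oligo (Klf9), and for knockdown 1 after scaling (Klf7) and 2 with multi-exon TPM (Klf7 and Klf9). A pseudocount of 0.1, no filter and all 9 libraries in one fit left these counts within 1.5 times. Leaving out a library gave 6 to 9 higher for control oligo and 7 to 8 for knockdown. Scaling together with a library left out, added after the data were seen, gave 2 to 4 and 2 to 3 higher and 0 to 1 lower in each.

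Over all genes, control oligo against sham gave 8990 higher and 2178 lower on TPM, 4456 and 4983 scaled, 4854 and 4562 with FPKM and 3075 and 4264 with multi-exon TPM. Knockdown against sham gave 9007 and 2143, then 3883 and 4629, 4457 and 4208, and 2564 and 4155.

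The main fits did not treat samples as paired by replicate number. Same-numbered libraries correlated at 0.2306 and 0.0743 (knockdown with control oligo), -0.0597 and 0.0686 (knockdown with sham) and -0.0304, -0.0710 and 0.1164 (control oligo with sham). Differently numbered libraries ran from -0.2396 to 0.2867. With 3 libraries per group these values cannot decide whether the numbers mark pairs. With the replicate block 7 and 8 members again passed against sham and 0 between the stroke groups.

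Signs that turned were these. Between knockdown and control oligo, the block gave -0.06 (Klf2), -0.08 (Klf4) and 0.20 (Klf15). Klf4 was -0.01 with FPKM, -0.03 scaled and -0.06 with multi-exon TPM. With a library left out, ranges crossed 0 for Klf2 (-0.12 to 0.38), Klf4 (-0.11 to 0.10), Klf5 (-0.25 to 0.03), Klf6 (-0.01 to 0.37), Klf7 (-0.31 to 0.02), Klf9 (-0.07 to 0.24), Klf10 (-0.18 to 0.39), Klf13 (-0.09 to 0.28) and Klf15 (-0.20 to 0.24). For knockdown against sham, FPKM, scaling and multi-exon TPM gave -0.36, -0.47 and -0.66 for Klf7, -0.16, -0.25 and -0.43 for Klf9 and -0.03, -0.12 and -0.29 for Klf10. Multi-exon TPM gave -0.11 for Klf6 and -0.03 for Klf13. For control oligo against sham the 3 settings gave -0.22, -0.30 and -0.45 for Klf7, -0.26, -0.33 and -0.47 for Klf9 and -0.17, -0.24 and -0.38 for Klf10. Scaling and multi-exon TPM gave -0.03 and -0.17 for Klf6, and multi-exon TPM gave -0.07 for Klf3, -0.04 for Klf13 and -0.01 for Smad3. Scaled with a library left out, Klf7 in the knockdown group was -0.56, -0.52, -0.50, -0.47, -0.43 and -0.33. These settings change how sham libraries are weighed against stroke libraries, and beyond that the cause was not tested. Cebpd has no multi-exon transcript and no value there. Coverage limits Klf2, Klf4 and Klf5 in sham.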
